A study of Arabidopsis thaliana with 12 samples.

Results

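The response of wild-type seedlings to red light was taken from 6 of the 12 libraries of the study, 3 of Col-0 kept in the dark and 3 of Col-0 given red light. Col-0 is the standard laboratory accession of Arabidopsis thaliana, and all seedlings were grown for 4 days in darkness on half-strength medium. For the red-light groups this was followed by 3 h under red light of 7 µmol m-2 s-1. The other 6 libraries held rrc1-3, a mutant in the Col-0 background, in the same conditions, and were used only for comparison. The labels name whole seedlings as the tissue and do not say whether libraries of a group came from separate cultures, so p-values measure a spread that may be technical.

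The deposited tables compared mutant with wild type, once in the dark and once in red light, and each lists what differed between the genotypes. A splicing feature (an exon or intron of a gene, with the junctions that define it) was used if both tables listed it with the same junctions, which held for 2349 of the 9898 features in either table. A gene's expression was used if both tables listed it with the same transcript set in both, which held for 3062 genes (10 more were left out because their transcript sets differed). The features and genes below are therefore those that differed between rrc1-3 and Col-0 in both conditions, and shares among them do not describe the whole genome.

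A seedling that germinates in darkness is etiolated: it elongates its hypocotyl, keeps the apical hook closed and holds its plastids without chlorophyll. Red light converts phytochromes to their active form, which enter the nucleus, bind the PIF transcription factors and trigger their breakdown, and the genes for chlorophyll synthesis, light harvesting and plastid assembly are switched on. In plants most alternative splicing is intron retention, and light is known to shift it, in part through serine/arginine-rich (SR) proteins that bind pre-mRNA. RRC1 is an SR-like splicing factor first described by the weak red-light response of its mutant, and it acts together with the splicing factor SFPS.

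Col-0 libraries held 560925 to 866325 reads over the compared features, with a median of 120 to 158 reads per feature. Intron retention was given as the mean reads of the intron's boundaries over these plus the spliced reads, and exon inclusion in the same way from junctions. Only the intron's own junction counts as spliced. Where an intron overlaps an annotated alternative event, other splice forms are left out of its percentage. Such introns include those named below in RPL4, mtLPD1, AT2G26500, AT1G52220, RVE4 and BES1, and the longer form in CHLM. The median retention of plain introns, those with no annotated alternative event, was 14.0% to 15.2% in the dark and 14.1% to 14.8% in red light, so the typical listed intron was spliced to a like degree in both. Among 6 root hair genes fixed as markers of an epidermal cell type, the 4 that were compared differed little between conditions, with log2 ratios of -0.29 to -0.04. Their levels were low, at 0.29 to 1.92 FPKM (fragments per kilobase and 1e6 fragments), with 1 pooled value per group and no test. In whole seedlings, fewer cells of a type and less RNA per cell cannot be told apart.

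Red light changed splicing at 58 of 2301 tested features in 54 genes (2.52% of those tested, adjusted p under 0.05, edgeR's quasi-likelihood test of inclusion against exclusion reads). Retention or inclusion was higher in red light at 24 features (1.04%) and lower at 34 (1.48%). The median size of the called changes was 12.7 percentage points, against 2.51 over all tested features, and 39 of the 58 were changes of at least 10 points. An unadjusted p under 0.05 was found at 356 features. With DESeq2 in place of edgeR, 37 features passed, all of them among the 58.

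**Figure D1:**
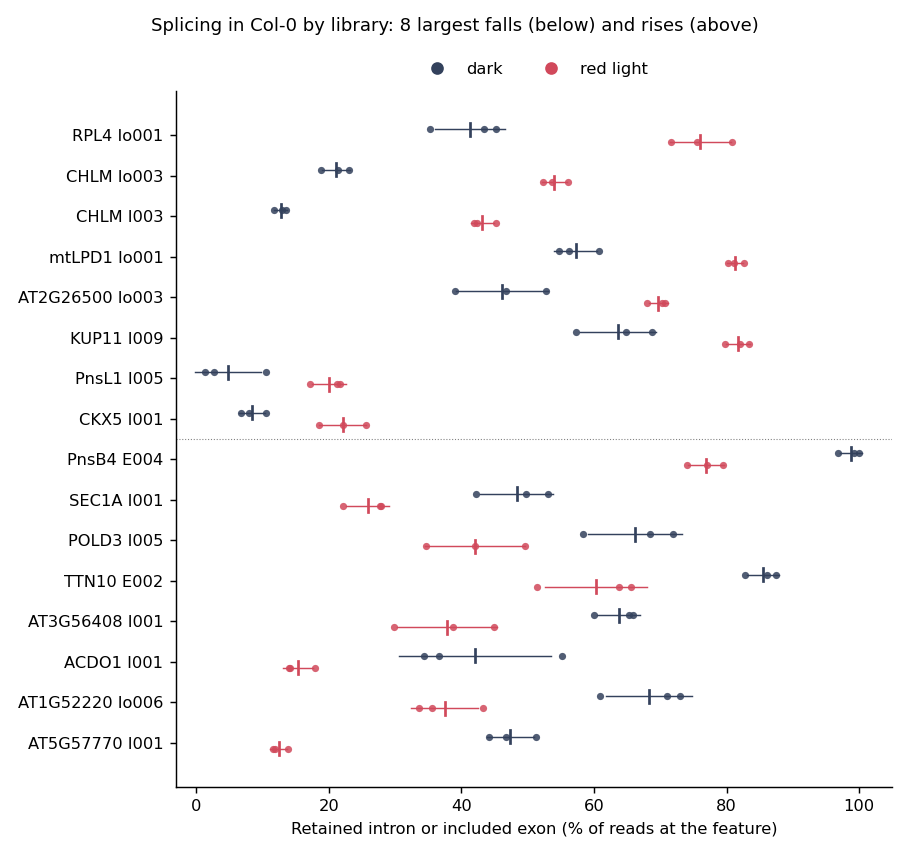
Retention or inclusion in each Col-0 library, in percent of the reads at the feature, for the 8 features with the largest falls (below the dotted line) and the 8 with the largest rises (above it) among called features with at least 50 reads per library. Points are libraries, vertical ticks the group means and horizontal lines 1 SD on each side (n = 3). Dark and red-light libraries are apart at all 16 features, which were picked for large called changes.

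The largest rises in retention included introns of genes for plastid and mitochondrial enzymes. CHLM encodes the magnesium protoporphyrin IX methyltransferase, an enzyme of chlorophyll synthesis. Its last intron lies in the 3′ UTR on chromosome 4 (TAIR10 coordinates 12878146 to 12878338, plus strand) and was retained at 13.0%, 11.7% and 13.6% in the 3 dark libraries. In red light the 3 values were 42.0%, 42.4% and 45.2%, all well above the dark values. The means were 12.8% ± 0.956 and 43.2% ± 1.74 (SD, n = 3), a log2 change in odds of 2.38 ± 0.15 (SE; edgeR adjusted p = 3.49e-09). A longer form of the intron, which ends at 12878381 and shares its first boundary, went from 21.1% ± 2.1 to 54.0% ± 1.87. The reads at that shared boundary went from 273 in the dark to 2353 in red light over the 3 libraries, while the boundary at the far end of the shorter form went from 49 to 156. Retention of this intron therefore rested mostly on 1 of its boundaries, and the longer form missed the threshold on its second boundary alone (edgeR adjusted p = 0.0723).

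RPL4 encodes a ribosomal protein of the L4 family. Retention of its listed intron was 43.4%, 45.2% and 35.3% in the dark libraries and 80.9%, 75.6% and 71.7% in the red-light libraries, so that the groups did not overlap (means 41.3% ± 5.26 and 76.0% ± 4.6, SD, n = 3; edgeR adjusted p = 0.000335). On the second boundary alone its adjusted p was 0.0552. PnsL1, a lumenal subunit of the chloroplast NADH dehydrogenase-like complex, had an intron retained at 2.7%, 1.33% and 10.5% in the dark and 21.2%, 21.8% and 17.2% in red light. Dark libraries held only 17 to 37 spliced reads over it, and the call was lost with DESeq2 (adjusted p = 0.0907) or without dark library 1 or 2. The introns of RPL4 and PnsL1 lie between coding exons and are short enough to show whole. They are printed 5′ to 3′ on the coding strand, with the GT and AG at their ends in capitals.
RPL4 intron, chr1:2250022-2250178, plus strand: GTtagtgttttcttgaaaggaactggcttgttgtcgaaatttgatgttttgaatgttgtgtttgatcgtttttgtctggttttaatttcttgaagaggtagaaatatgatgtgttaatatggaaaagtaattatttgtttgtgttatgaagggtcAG
PnsL1 intron, chr2:16476916-16477001, plus strand: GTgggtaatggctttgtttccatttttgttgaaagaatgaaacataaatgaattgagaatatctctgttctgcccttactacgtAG

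The mtLPD1 gene encodes a mitochondrial lipoamide dehydrogenase, the subunit shared by several decarboxylase complexes. Its 3′ UTR intron was retained at 54.7%, 56.2% and 60.8% in the dark and 81.1%, 80.1% and 82.6% in red light (edgeR adjusted p = 0.000505). AT2G26500, annotated as the PetM subunit of the cytochrome b6f complex, had a 5′ UTR intron at 52.8%, 39.0% and 46.7% in the dark and 68.0%, 70.7% and 70.3% in red light (edgeR adjusted p = 0.00323). That call was lost without dark library 2 (adjusted p = 0.071) and on the first boundary alone. Outside the plastid and mitochondrion, the potassium transporter gene KUP11 went from 63.6% ± 5.76 to 81.7% ± 1.79 at a 5′ UTR intron, on reads that lay mostly at its first boundary (1175 of them in red light, against 60 at the second). CKX5, a cytokinin oxidase that breaks down the hormone cytokinin, went from 8.48% ± 1.92 to 22.1% ± 3.55 at an intron between coding exons. For both, the second boundary alone gave no call (adjusted p = 0.563 and 0.671), and that of CKX5 was also lost without red-light library 2.

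The largest falls included genes of the thylakoid as well as genes with other roles. AT5G57770, annotated as an auxin canalization protein, had the last of its 7 introns retained at 44.2%, 51.2% and 46.8% in the dark and 12.0%, 11.5% and 13.9% in red light. The log2 change in odds was -2.64 ± 0.30 (SE, edgeR adjusted p = 1.88e-05), and each boundary alone gave a call. ACDO1, an ABC1-like kinase of the chloroplast, had its first intron at 34.3%, 36.6% and 55.2% in the dark and 18.0%, 14.0% and 14.2% in red light (edgeR adjusted p = 9.97e-05). One dark library thus stood higher than the other two, and all 3 lay above the red-light values. SEC1A, a Sec1/Munc18 protein of vesicle fusion, had its first intron at 49.8%, 53.0% and 42.2% in the dark and 22.2%, 27.9% and 27.7% in red light (edgeR adjusted p = 0.00472; 0.0847 on the first boundary alone). The introns of AT5G57770 and SEC1A, both between coding exons and both spliced more completely after red light, read as follows, with the terminal GT and AG in capitals.
AT5G57770 intron, chr5:23401330-23401425, minus strand: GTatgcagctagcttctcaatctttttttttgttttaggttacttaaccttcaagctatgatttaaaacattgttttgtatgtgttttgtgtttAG
SEC1A intron, chr1:348128-348211, plus strand: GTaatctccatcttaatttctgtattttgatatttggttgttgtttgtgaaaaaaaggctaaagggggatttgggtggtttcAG

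Exon use changed in genes of the thylakoid too. PnsB4 encodes another subunit of the chloroplast NADH dehydrogenase-like complex. Junctions that leave out one of its listed exons had 0, 1 and 2 reads in the dark libraries and 82, 123 and 135 in red light, and inclusion went from 98.7% ± 1.65 to 76.8% ± 2.7 (edgeR adjusted p = 4.61e-06). AT1G52220, annotated as a thylakoid curvature protein, had 5, 9 and 8 reads for the form without its listed exon in the dark and 103, 114 and 157 in red light. Inclusion of that exon went from 97.9% ± 0.747 to 91.3% ± 0.784. For the intron that shares the same spliced reads, the percentage went from 68.3% ± 6.43 to 37.5% ± 5.09. It counts only the form without the exon as spliced, so it is not the share of all transcripts that keep the intron. Unscaled reads at the intron's boundaries rose, from 50 to 175 at the first and from 46 to 267 at the second. The intron's call was lost without dark library 2 (edgeR adjusted p = 0.0756) and on its second boundary alone.

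TTN10, a GINS complex protein of DNA replication, had a skipped exon included at 87.5%, 82.8% and 86.0% in the dark and 51.4%, 63.8% and 65.6% in red light (edgeR adjusted p = 0.00147). POLD3, a subunit of DNA polymerase delta, had an intron retained at 66.2% ± 7.06 in the dark and 42.1% ± 7.49 in red light. POLD3 was the weakest of the named calls (edgeR adjusted p = 0.0484), lost with DESeq2, with inclusion reads summed over both boundaries, on the first boundary alone, and without any single library other than dark library 1. The transcript of AT3G56408 has no annotated coding sequence, and its intron was retained at 63.7% ± 3.22 in the dark and 37.8% ± 7.58 in red light. That difference came from the second boundary (312 reads in the dark, 226 in red light), as the first held 12 and 23 reads and gave no call.

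Of the 11 gene lists, 4 had no tested feature, and the auxin and dark-induced lists had 1 and 2. Calls fell in the lists for chlorophyll synthesis (2 of 3 features, both in CHLM) and the circadian clock. The clock list had 7 tested features in 6 genes, of which 3 passed, against 2.52% of all tested features. RVE2, a MYB-like factor related to the morning clock proteins, had an intron retained at 63.3%, 61.5% and 63.0% in the dark and 51.6%, 48.1% and 46.7% in red light (edgeR adjusted p = 0.000592). LNK2, a transcriptional coactivator that partners the RVE proteins, went from 32.9%, 31.3% and 34.1% to 23.6%, 21.6% and 17.6% (edgeR adjusted p = 0.0159). RVE4, a relative of the clock activator RVE8, moved the other way, from 4.91%, 5.47% and 4.09% to 11.4%, 7.84% and 8.65% (edgeR adjusted p = 0.0305). In all 3 genes, which are named because they were called, the dark and red-light libraries did not overlap. The calls of LNK2 and RVE4 were lost with DESeq2 (adjusted p = 0.118 and 0.128), on the second boundary alone (0.198 and 0.0573; RVE4 also on the first, 0.093) and without red-light library 3 (0.116 and 0.0758). LNK2 was also lost without red-light library 2, and RVE4 without red-light library 1 or any of the dark libraries. The SR list had 14 tested features in 9 genes and the list of other splicing factors 13 in 6 genes, with no call in either, and the 7 features of light-signalling genes gave none, counts too small to set apart from the 2.52% over all features.

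By type of feature, plain introns gave 29 calls among 1459 tested and introns that overlap an alternative event gave 14 among 518. All 5 called annotated retained introns, of 150 tested, were retained more in red light. In contrast, all 10 called exon features were included less in red light: 4 of 12 skipped exons, 3 of 10 other exons, 2 of 63 alternative 5′ splice sites and 1 of 89 alternative 3′ splice sites. Part of this shared direction is built in. The PnsB4 exon, with 0, 1 and 2 skipping reads in the dark, passed the read filter only through red light and could only be called as included less. The called exons of AT1G52220 and PDE318 share their skipping reads with called introns, so these calls are not independent. By position, 6 of 107 introns of 3′ UTRs were called and all 6 rose, but both forms of the CHLM intron are among them. Introns of 5′ UTRs gave 15 calls of 773, with 9 rises and 6 falls, and introns between coding exons 22 of 1198, with 8 rises and 14 falls. The 24 introns that rose and the 24 that fell had median lengths of 190 and 258.5 bases, against 211 over all tested introns, and median GC contents of 33.1% and 33.2%, against 33.3%. First introns made up 50.0% of either set and 48.6% of all tested.

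The boundaries of an intron gave the same direction in nearly all calls. A call uses the mean of both boundaries, and each boundary alone is set against the same spliced reads. Agreement in direction is therefore partly built in. Of 53 called features with boundaries or junctions that could be tested on their own, 51 had the same sign at both, 48 were called on at least 1 alone and 20 on both. Boundaries that differed in reads by more than 3-fold occurred in 16 of the 48 called introns (33.3%), against 16.5% of all tested introns. Leaving out each library in turn, 31 of the 58 calls remained in all 6 refits.

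The same features were read in rrc1-3. Its libraries were not in the tests above, but they helped decide which features were listed and so could be tested. In rrc1-3 red light changed 75 of 2333 tested features (3.21%). In both genotypes 32 features were called, which is 55.2% of the Col-0 calls and 42.7% of the rrc1-3 calls. All 32 had the same direction in both, and of the 58 Col-0 calls 50 had the same sign in rrc1-3. The share of same signs over all tested features was not computed. CHLM retention went from 28.6% ± 2.0 in dark rrc1-3 to 54.1% ± 1.4 in red light, and AT5G57770 from 69.4% ± 6.0 to 7.26% ± 4.5. In contrast, the POLD3 intron was retained at 17.3% ± 1.8 in dark rrc1-3 and 17.9% ± 2.8 in red light. Its response was not shown to differ between genotypes (interaction, edgeR adjusted p = 0.519).

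**Figure D2:**
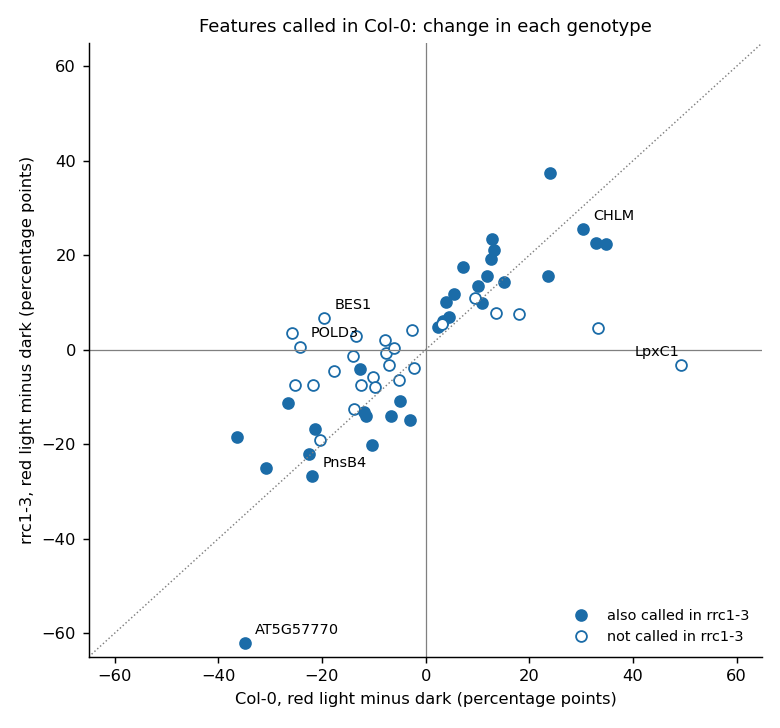
Change from dark to red light in Col-0 (horizontal axis) and in rrc1-3 (vertical axis), in percentage points of retention or inclusion, for the 58 features called in Col-0. Filled points were also called in rrc1-3, open points were not, and the dotted line marks equal changes; 50 of the 58 points have the same sign on both axes.

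A difference between the responses of the genotypes was tested as an interaction over all 12 libraries. Features listed as differing between the genotypes in only 1 condition were not among those tested. The share that passed therefore does not show how often the responses differ. Of 2338 features, 1 passed (0.0428%), while 147 had an unadjusted p under 0.05, 17 of them among the 58 Col-0 calls. The one that passed was the first listed intron of BES1, a transcription factor of brassinosteroid signalling, which lies in a 5′ UTR at 6688645 to 6688774 on chromosome 1 (plus strand). In Col-0 it was retained at 59.1%, 61.2% and 67.4% in the dark and 45.5%, 38.5% and 44.8% in red light. In rrc1-3 the values were 52.9%, 58.2% and 63.9% in the dark and 68.8%, 61.9% and 64.3% in red light. Retention thus fell in Col-0, and the rrc1-3 groups overlapped. The interaction was 1.60 on the log2 odds scale (edgeR adjusted p = 0.0368). It was lost with DESeq2 (adjusted p = 0.0953), with inclusion reads summed over both boundaries (0.0598), and without 7 of the 12 libraries taken singly: dark Col-0 library 2 or 3, red-light Col-0 library 2 or 3, dark rrc1-3 library 1 or 2, or red-light rrc1-3 library 1.

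Gene levels per library were read from the spliced reads of each gene's listed introns, summed and scaled by TMM to counts per 1e6 spliced reads (CPM). Spliced reads changed in 417 of 1717 genes (24.3%, edgeR adjusted p under 0.05), 252 higher in red light (14.7%) and 165 lower (9.61%). For 1408 of the tested genes the value rested on 1 intron, and for 41 (10 of them called) on junctions that leave out a listed exon or part of one, so it can follow 1 form of the transcript. Of the called genes, 130 were at least 2-fold higher and 33 at least 2-fold lower, and the median log2 change over all tested genes was 0.01. Of the 45 genes with a called intron and a tested level, 31 changed in spliced reads (68.9%, against 24.3% of genes with any tested intron). Where retention rose, 7 genes were higher and 9 lower, and where it fell, 14 were higher and 1 lower. Both measures use the same spliced reads, so they are not independent.

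**Figure D3:**
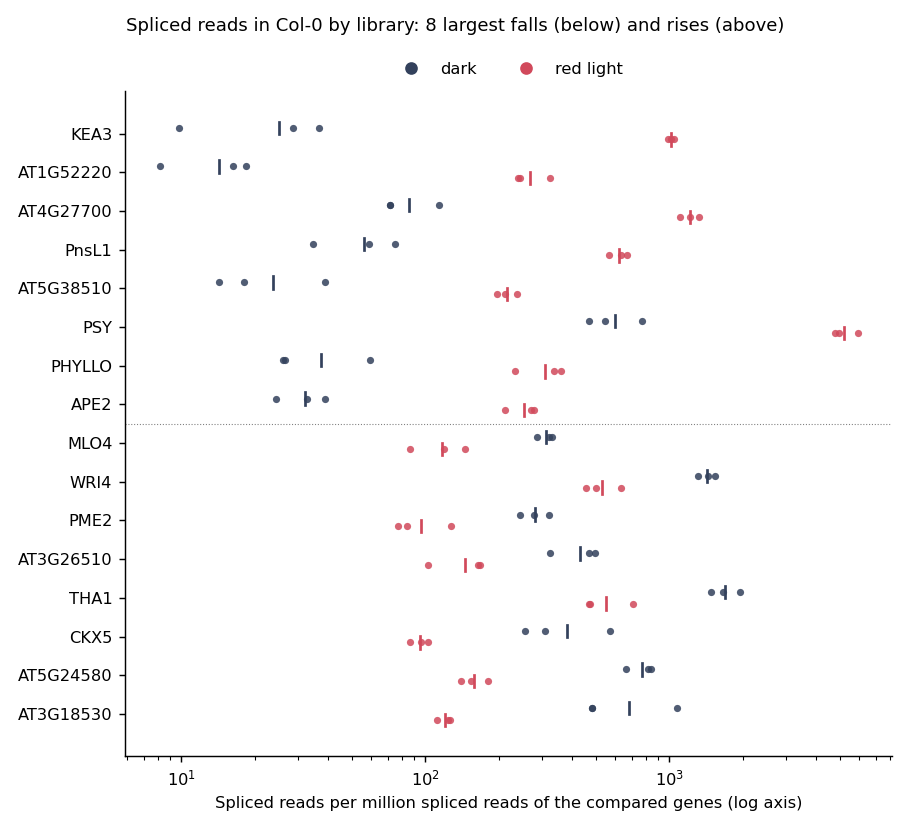
Spliced reads per 1e6 spliced reads of the compared genes (CPM, log axis) in each Col-0 library, for the 8 genes with the largest falls (below the dotted line) and the 8 with the largest rises (above it) among called genes with at least 50 reads per library. Points are libraries and vertical ticks group means. In each of the 16 genes, which were picked for large called changes, the 3 red-light libraries lie on one side of the 3 dark libraries.

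The largest rises in spliced reads included genes for proteins of the thylakoid, the plastid envelope and carotenoid synthesis. KEA3, a thylakoid potassium/proton antiporter that tunes photosynthesis when light changes, had 9.8, 36.6 and 28.6 CPM in the dark and 1041, 983 and 1019 in red light (41.8-fold; log2 change 5.39 ± 0.23, SE; edgeR adjusted p = 1.8e-09). Its dark values rested on 6, 18 and 14 reads. AT1G52220, the thylakoid curvature gene described above, went from 14.3 ± 5.38 to 269 ± 47.3 (SD, n = 3), but its only compared intron is spliced by the junction that leaves out the exon, so this is the level of that minor form. At the first junction that includes the exon, 1057 unscaled reads in the dark stood against 3788 in red light over 3 libraries each. PSY, the phytoene synthase that makes the first carotenoid, had 545, 775 and 468 in the dark and 4958, 4793 and 5907 in red light (8.76-fold). The remaining large rises, picked in the same way, had like profiles and no overlap between groups. They were AT4G27700, a rhodanese-domain protein (log2 change 3.83), PnsL1 (3.46), AT5G38510, a rhomboid-related protease (3.19), PHYLLO, an enzyme of phylloquinone synthesis (3.07), and APE2, the triose phosphate translocator of the plastid envelope (2.97). PSY also had an intron of its 5′ UTR retained less in red light, at 3.63% ± 0.458 against 8.53% ± 1.15 (edgeR adjusted p = 0.000505).

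The largest falls had mixed roles and smaller sizes. AT3G18530, an ARM repeat protein, had 483, 1073 and 484 CPM in the dark and 124, 111 and 126 in red light (log2 change -2.49 ± 0.29, SE; edgeR adjusted p = 1.7e-05). AT5G24580, a heavy metal-binding domain protein, had 844, 661 and 817 in the dark and 180, 154 and 140 in red light. CKX5, whose retained intron is described above, had 256, 572 and 310 in the dark and 103, 96.2 and 86.6 in red light. In both AT3G18530 and CKX5 dark library 2 stood well above the other dark libraries, and all 3 dark values lay above the red-light values. THA1, a threonine aldolase, AT3G26510, PME2, a pectin methylesterase that acts on the cell wall, WRI4, an AP2-type factor of cuticular wax synthesis, and MLO4, a membrane protein of root growth responses, fell by 1.62, 1.56, 1.54, 1.43 and 1.42 on the log2 scale.

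**Figure D4:**
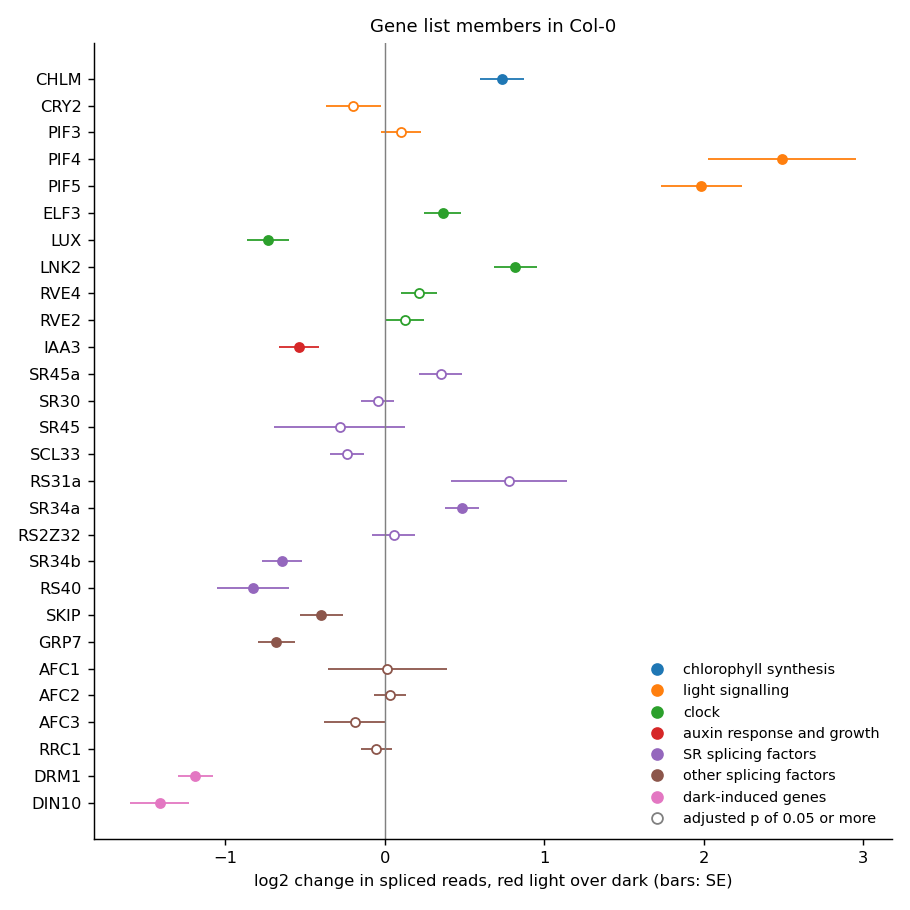
The log2 change in spliced reads from dark to red light in Col-0 for every gene of the lists that could be tested, coloured by list, with bars of 1 SE (3 libraries per group). Filled points have an edgeR adjusted p under 0.05; PIF4 and PIF5 lie farthest to the right and DIN10 and DRM1 farthest to the left.

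Among light-signalling genes, 2 of 4 with tested spliced reads rose, against 14.7% of all tested genes. PIF4 reached the mean of 10 reads needed for a test only through red light, so this count is partly built in. PIF4, a bHLH factor that promotes elongation, had 9.8, 8.14 and 8.17 CPM in the dark and 77, 36.3 and 39.2 in red light (log2 change 2.49 ± 0.46; edgeR adjusted p = 0.0012), on only 4 to 6 reads per dark library. PIF5, its close relative, had 32.7, 36.6 and 36.8 in the dark and 133, 130 and 157 in red light (log2 change 1.98 ± 0.25). PIF3, another PIF that acts in the dark, and CRY2, a blue-light receptor, had changes of 0.10 ± 0.13 and -0.20 ± 0.17 that did not pass. Of 5 clock genes, LNK2 (0.82) and ELF3 (0.36) rose and LUX (-0.73) fell. ELF3 and LUX are both members of the evening complex, and ELF3 lost its call with DESeq2 (adjusted p = 0.0949) and without dark library 1 or 2 or any red-light library. RVE2 and RVE4, whose splicing changed, had level changes of 0.13 ± 0.12 and 0.22 ± 0.11 that did not pass. CHLM rose (0.74), and IAA3, an auxin-response repressor, fell (-0.54).

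Splicing factor genes gave 5 calls in spliced reads among 15 tested, against 24.3% of all tested genes. Of 9 SR genes, SR34a rose (log2 change 0.48 ± 0.10, edgeR adjusted p = 0.0033) while SR34b (-0.64 ± 0.12) and RS40 (-0.83 ± 0.22) fell, a call that RS40 lost without dark library 3 or red-light library 1 or 3. The other 6, SR30, SR45, SR45a, SCL33, RS31a and RS2Z32, did not pass, with changes from -0.28 to 0.78. SR45a passed when dark library 2 was left out (adjusted p = 0.0144). RRC1 itself had 1179, 1162 and 1162 CPM in the dark and 1181, 1098 and 1099 in red light, a change of -0.05 ± 0.10 (edgeR adjusted p = 0.74). The SR protein kinases AFC1, AFC2 and AFC3 had changes of 0.02 ± 0.37, 0.03 ± 0.10 and -0.19 ± 0.19. GRP7, a glycine-rich RNA-binding protein under clock control, fell by 0.68 on the log2 scale, and SKIP, a splicing factor of clock genes, by 0.40, though SKIP lost its call with DESeq2 (adjusted p = 0.0709), under the replicate block, and without dark library 3 or any red-light library. Both tested dark-induced genes fell: DRM1, a dormancy-associated gene, from 15466 ± 1662 to 6798 ± 483 CPM and DIN10, a raffinose synthase-like gene read only at a junction that leaves out part of an exon, from 9945 ± 1032 to 3744 ± 1285.

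The second measure of level was the authors' FPKM (fragments per kilobase and 1e6 fragments), deposited as 1 value per group with no libraries, so it carries no test and its depth is unknown. Of 2648 genes with at least 1 FPKM in either condition, 298 were at least 2-fold higher in red light (11.3%) and 106 at least 2-fold lower (4.0%), with a median log2 ratio of -0.04. In the 201 genes with both measures the log2 changes had a Pearson r of 0.896 and a Spearman rho of 0.837 across genes, which share their libraries and are not independent. All 60 of these genes with called spliced reads had the same sign in FPKM.

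**Figure D5:**
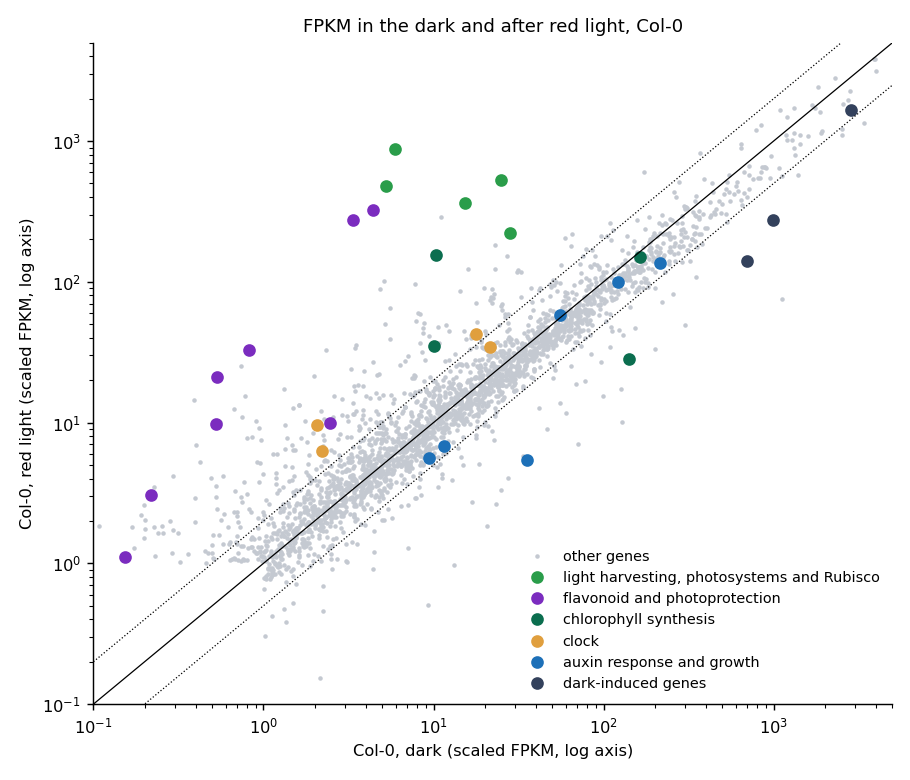
FPKM of Col-0 in the dark (horizontal) and in red light (vertical), both on log axes after the tables were put on 1 scale, for genes with at least 1 FPKM in either condition. Coloured points are members of 6 gene lists, the solid line marks equal levels and the dotted lines 2-fold differences; light-harvesting and flavonoid genes lie above the upper dotted line.

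Genes of light harvesting and photoprotection had the highest ratios among genes above the median level. All 5 compared genes of the list of light harvesting, photosystem and Rubisco genes were at least 2-fold higher, with a median log2 ratio of 4.58. The light-harvesting proteins of photosystem II bind most of the chlorophyll of the antenna. LHCB1.1 went from 5.96 to 878 FPKM, LHCB1.2 from 5.23 to 478, LHCB1.4 from 25.0 to 528 and LHCB2.3 from 15.2 to 365. The LHCB1 genes are near-identical copies between which reads can be split, so their separate values are uncertain. PSBY, a small photosystem II protein, went from 28.0 to 221 FPKM. ELIP1 and ELIP2, the early light-induced proteins that protect thylakoids while chlorophyll is assembled, went from 3.36 to 273 and from 4.39 to 324.

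Of the 12 genes in the flavonoid and photoprotection list, 8 were compared. All 8 were at least 2-fold higher, against 11.3% of all genes with at least 1 FPKM, with a median log2 ratio of 4.76. However, CHS, F3H, PAP1, FLS1 and MYB111 were below 1 FPKM in the dark and reached that level only in red light. Their rise is thus partly built in by the level filter, and the comparison of shares is a description only. Chalcone synthase (CHS), the first enzyme of flavonoid synthesis, went from 0.826 to 32.9 FPKM, over a deposited locus of 6.90 kb that also holds 1 neighbouring gene. The next enzymes CHI and F3H went from 2.46 to 9.91 and from 0.534 to 21.1 (the F3H locus too holds 1 other annotated gene), and the flavonol synthase FLS1 from 0.218 to 3.06. The MYB factors of the pathway, PAP1 and MYB111, went from 0.527 to 9.82 and from 0.152 to 1.104. Ratios of such low dark values depend on the scale, and with 1 added to each FPKM the log2 ratio of MYB111 was 0.87 in place of 2.86 and that of FLS1 1.74 in place of 3.81. The other high ratios were those of BBX30, a B-box microprotein (0.736 to 25.1 FPKM), and GLDP1, a subunit of glycine decarboxylase of photorespiration (26.2-fold higher, at 289 FPKM in red light).

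Of 17 genes of chlorophyll synthesis, 4 were compared by FPKM, of which 2 were at least 2-fold higher and 1 at least 2-fold lower. The shares over all genes with at least 1 FPKM were 11.3% and 4.0%. GSA2, which makes the precursor aminolevulinic acid, went from 10.01 to 35.02 FPKM, and GUN4, which activates magnesium chelatase, from 10.3 to 155. PORA and PORB reduce protochlorophyllide in a step that itself needs light. PORA was at 142 FPKM in the dark and 28.4 in red light, a log2 ratio of -2.31, while PORB was at 164 and 151. All 15 compared plastid-encoded genes had a ratio above 1, with log2 values of 0.29 to 1.42, against -0.54 to 0.50 for 13 mitochondrial genes.

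The lowest ratios included genes of cell wall loosening and growth. XTH15, a xyloglucan-modifying enzyme of the cell wall, went from 1125 to 75.4 FPKM (14.9-fold lower), and EXPA9, an expansin that loosens walls, from 127 to 17.2. RTFL21, a ROTUNDIFOLIA-like small peptide, went from 128 to 10.1, GRF7, a growth-regulating factor, from 20.6 to 1.83, and the kinase SNRK2.5 from 71.1 to 7.10. AT2G34020, AT3G21330 and AT3G54830, annotated as an EF-hand protein, a bHLH factor and an amino acid transporter, had log2 ratios of -3.13, -2.90 and -2.75, the last over a locus that also holds 1 other gene. In the list of auxin response and growth genes, 1 of 6 passed the 2-fold threshold: GH3.3, which conjugates auxin to amino acids, from 35.4 to 5.47. Over all genes with at least 1 FPKM, 4.0% were at least 2-fold lower. The auxin synthesis gene TAA1 (-0.74), the gibberellin synthesis gene GA3OX1 (-0.77), IAA4 (-0.67) and EXPA8 (-0.28) had lower values in red light, and PIN3, an auxin exporter, had a log2 ratio of 0.06 whose sign turned without the scaling between tables.

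Clock and dark-induced genes had ratios in opposite directions. Of 4 clock genes, GI (17.8 to 42.8 FPKM), ELF4 (2.197 to 6.25) and CDF1 (2.05 to 9.64) were at least 2-fold higher, against 11.3% of all genes with at least 1 FPKM. RVE8, over a locus with 1 other annotated gene, was at 21.5 and 34.2. The dark-induced genes ASN1, an asparagine synthetase, and DIN1 went from 696 to 140 and from 995 to 276 FPKM, and DRM2 from 2852 to 1664. The light-signalling genes HFR1, a bHLH factor that restrains PIFs, and DET1, a repressor of photomorphogenesis, had ratios of -0.71 and 0.37 on the log2 scale. For stress, RD29A had a log2 ratio of 1.01 and RAB18 one of -0.29. The splicing-related genes PTB3, LSM5 (over a locus with 1 other annotated gene) and GRP7 had log2 ratios of 0.30, 0.19 and -0.76, the last near the fall of GRP7 in spliced reads.

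Genes at least 2-fold higher in Col-0 red light had a median log2 ratio of 1.78 in Col-0 and 1.26 in rrc1-3, and 193 of the 298 were at least 2-fold higher in rrc1-3 as well. Of the 106 that were lower, 73 were also at least 2-fold lower in rrc1-3. Since the genes were chosen by their ratio in Col-0, the lower rrc1-3 medians are a description only. ELIP1 was at 12.6 and 1323 FPKM in rrc1-3, and XTH15 at 1777 and 118, so both had like ratios in the 2 genotypes at higher levels in the mutant. GH3.3 had a log2 ratio of -0.92 in rrc1-3, against -2.70 in Col-0.

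Promoters of the genes with high and low ratios were searched, in the 250 bases before the annotated start, on both strands, for a pair of sequences known from light-regulated plant genes. The G-box CACGTG, bound by bHLH and bZIP factors such as the PIFs and HY5, occurred in 26 of 294 promoters of genes that were higher in red light (8.84%) and in 14 of 104 of genes that were lower (13.5%). Among all compared genes the share was 8.43%, and among all protein-coding genes 6.49%. The I-box GATAAG occurred in 12.9% of the higher and 20.2% of the lower genes, against 13.5% of the compared genes and 12.3% of all. Both shares were close to those of the compared genes for the higher genes and above them for the lower genes, a difference that was not tested.

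The promoters of ELIP1 and CHS, which had among the highest ratios, are printed here 5′ to 3′ on the coding strand, up to the base before the annotated start, with any match to these sequences in capitals. ELIP1 has a G-box that begins 66 bases before the start and an I-box, on the other strand, 17 bases before it. CHS has a G-box that begins 233 bases before the start. Such matches describe the sequence and do not show that a factor binds there.
ELIP1 promoter, chr3:8085670-8085919, minus strand: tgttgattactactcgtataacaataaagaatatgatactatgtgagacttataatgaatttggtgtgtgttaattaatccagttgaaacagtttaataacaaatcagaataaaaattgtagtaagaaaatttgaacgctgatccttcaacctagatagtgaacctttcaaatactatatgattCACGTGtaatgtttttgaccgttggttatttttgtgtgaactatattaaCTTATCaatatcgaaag
CHS promoter, chr5:4488226-4488475, plus strand: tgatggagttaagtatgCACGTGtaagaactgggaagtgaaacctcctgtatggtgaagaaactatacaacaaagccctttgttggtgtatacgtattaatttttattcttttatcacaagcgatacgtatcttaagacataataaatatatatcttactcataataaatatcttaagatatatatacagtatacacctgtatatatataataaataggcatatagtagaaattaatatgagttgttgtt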

How the data were processed

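Each group had 3 libraries of rRNA-depleted RNA from seedlings. Reads were aligned with TopHat2 to TAIR10, per the submitters' processing notes (versions not given in the sources used here). The deposited splicing tables hold read counts per junction or boundary and library, with the columns of ASpli per the file headers, and list features that the authors called between genotypes by a p-value adjusted to below 0.05 and a difference score of at least 0.03. The deposited expression tables hold 1 FPKM per group, with the authors' log2 fold change, p-value and q-value and the columns of Cuffdiff per the file headers, for genes the authors called. The fraction of inclusion deposited by the authors was not used. Every annotated retained intron in the deposited tables (267 in the dark table, 272 in the red-light table) carries junctions outside the gene that its row names, all of them in the gene that its boundary names, so the boundary's name was used here.

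Inclusion reads were the mean of both boundaries or junctions, rounded, and exclusion reads the spliced or skipping junction. Features with a mean of at least 10 reads and 2 of each kind per library were tested in edgeR 4.0.16 (R 4.3.3; glmQLFTest) for inclusion against exclusion by light within library, over the 6 Col-0 libraries, and for the interaction over all 12. Spliced reads were summed per gene over listed introns, scaled by TMM and tested the same way. The Benjamini-Hochberg adjustment ran over all tested features or genes. FPKM of the dark and red-light tables were divided by the factors 1.04 and 0.972, the ratio of the rrc1-3 FPKM in these tables to those in another deposited table that holds both rrc1-3 groups, and compared without pseudocount. Each factor was constant across genes (1.033 to 1.038 and 0.966 to 0.978). The 11 lists hold 224 genes. Named features and genes are the 8 largest rises and falls among calls with at least 50 reads per library (for FPKM, above the median level), all list members tested for level, and up to 4 called features per list. BES1 was named because it alone passed the interaction, and the PSY intron and AT1G52220 exon after their values were seen. The members and lists were chosen with earlier results of these data known. The scripts were tested on simulated data. Alternatives were other filters, DESeq2 1.42.0, upper-quartile scaling, 1 intron per gene, summed reads, a replicate block, each library left out, and, chosen after seeing the data, each boundary alone and a test within rrc1-3. Without a stated strand, overlapping genes may share reads. Coordinates are TAIR10, 1-based, and sequences, intron positions and gene names are from the RefSeq TAIR10.1 assembly, in which 98.8% of the compared introns run from GT to AG. Figures used matplotlib 3.10.9.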

Additional observations from a re-analysis of the deposited data

Results flagged for a closer look

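The splicing response at the first listed intron of BES1 differed between the genotypes, with an interaction of 1.60 on the log2 odds scale (rrc1-3 minus Col-0; edgeR adjusted p = 0.0368). The fall in Col-0 (62.6% ± 4.33 to 42.9% ± 3.87, n = 3) came from the second boundary, which held 531 reads in the dark and 513 in red light while the spliced reads rose. The first boundary held 113 and 179 reads and gave no call alone (adjusted p = 0.465). The spliced reads of BES1 rose in Col-0 (log2 change 1.43).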

How the results depend on the processing

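The count of 58 splicing calls was 61 without a filter, 58 with a stricter one and 53 with summed reads, but 37 with DESeq2, 38 on the second boundary alone and 41 on the first. It was 66 under the replicate block and 39 to 56 without 1 library. The single interaction call gave 0 calls with DESeq2 (72 at an unadjusted p under 0.05), 0 with summed reads (139 unadjusted), 3 under the replicate block and 0 to 4 without 1 library. The 417 calls in spliced reads were 373 under the replicate block, 375 to 416 under the other settings and 305 to 468 without 1 library, which is without red-light library 3 and dark library 2. Genes at least 2-fold higher in FPKM were 207 to 353 and those lower 80 to 129. Whether same-numbered libraries were paired is not known, and the few correlations of their deviations cannot settle it. Same-numbered dark and red-light deviations correlated at -0.020 to 0.132 in splicing and -0.076 to 0.018 in spliced reads. Those with different numbers correlated at -0.093 to 0.077 and -0.021 to 0.064. No named result changed sign where it was called. For named splicing features and the interaction, 221 alternative values kept their side of the threshold and 43 no longer passed it, and the cause was not tested. Features of few reads, and FPKM below 1, limit the sizes given.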

Other observations

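MIR156c, the precursor gene of a miR156 family member, had the introns listed as 1 and 2 retained less in Col-0 red light, at 8.84% ± 0.484 against 13.9% ± 1.64 and 11.5% ± 0.343 against 17.7% ± 0.226 (edgeR adjusted p = 0.00348 and 0.00167), while its spliced reads rose by 1.12 on the log2 scale. Both were chosen after their values were seen. In rrc1-3 the first went from 33.2% ± 1.1 to 26.8% ± 1.6 (adjusted p = 0.169) and the second from 30.3% ± 4.5 to 30.6% ± 0.56, which was not called, and neither difference between genotypes passed the interaction test (edgeR adjusted p = 0.982 and 0.303). AT3G26070, a fibrillin-family protein of plastids, had no read of the form without one of its listed exons in any dark Col-0 library and 9, 3 and 20 in red light, and inclusion in rrc1-3 went from 96.4% ± 1.7 to 81.5% ± 1.7. This exon too was chosen after its values were seen. The Col-0 counts are unscaled and can follow the level of the gene, and in Col-0 such reads occurred only in red light.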
